A study of Mus musculus with 15 samples.

Results

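The genes described here are 42 genes of ribosome biogenesis in mouse embryonic stem (ES) cells, of which 40 were measured among the 19937 genes of the array table. They were taken as a fixed list of gene symbols, which was chosen with earlier results of these data known. Each measured member was read from a probe set with exactly 1 gene symbol. Where a gene had more than 1 such set, the one with the highest average signal in the 15 arrays was used. Noc2l and Ppan are not analysed here. All cells came from a single 2i-adapted ES cell line that carries the biotin ligase BirA and a biotin and 3xFLAG tag knocked into Ctnnb1, which encodes beta-catenin (Ctnnb1-BioFLneo;BirA). That genotype is shared by all 5 groups, controls included, so the results describe 1 engineered line. The 2iLIF group was in long-term culture with 3 µM CHIR99021, 1 µM PD0325901 and LIF. From the other 4 groups LIF was withdrawn for 24 h: 2i kept both inhibitors, CHIR kept 3 µM CHIR99021, PD03 kept 1 µM PD0325901, and DMSO kept neither. Each group had 3 arrays of total RNA. CHIR99021 inhibits the kinase GSK3, PD0325901 inhibits the kinase MEK upstream of ERK, and LIF is a cytokine that activates STAT3.

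Ribosomes are built in the nucleolus, where RNA polymerase I transcribes a long precursor RNA that is modified, cut and folded while ribosomal proteins join it. The small nucleolar RNPs guide the chemical modification of the precursor, the small subunit processome releases the future small subunit, and a separate series of assembly factors builds the large subunit. Genes of these factors are widely known as growth-related genes and as targets of the transcription factor Myc, and ES cells, which divide rapidly, express them strongly.

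Values are log2 signals summarised per probe set with RMA, and a difference of 1 on this scale is a doubling of signal. Differences between groups are given with their standard error (SE) from a limma fit across all 19937 genes and 15 arrays, and the test was passed at a Benjamini-Hochberg adjusted p under 0.05. Higher and lower refer to the first-named group of a comparison. Array medians over all probe sets lay between 6.98 and 7.06. Markers were read to check the labelled cell type. The 6 ES cell markers averaged 11.60 to 11.98 over the arrays and none had a group mean under 6. The 8 fibroblast markers averaged 6.27 to 6.47, the 7 primitive endoderm markers 6.52 to 6.70 and the 5 measured neural progenitor markers 6.79 to 7.16, with 3, 1 and 1 of them under 6 in each group. Signals of different probe sets are not on a common scale, so these lists cannot be ranked against each other. Pou5f1, the pluripotency factor Oct4, was at 12.49 ± 0.04 in CHIR, 12.52 ± 0.02 in PD03 and 12.54 ± 0.02 in DMSO. By array the 6 ES cell markers averaged 11.60 to 11.66 in DMSO, below all arrays of the other groups. They averaged 11.82 to 11.84 in CHIR, 11.90 to 11.94 in PD03, 11.91 to 11.92 in 2i and 11.96 to 11.98 in 2iLIF. Nanog, another of the 6, was at 11.74 ± 0.10 in DMSO, 12.44 ± 0.01 in CHIR and 12.56 ± 0.03 in PD03. A marker of each pathway was read to check the treatment labels. Axin2, a Wnt target, was at 9.31 ± 0.06 in CHIR against 7.86 ± 0.23 in DMSO, and Dusp6, an ERK target, at 9.34 ± 0.05 in PD03 against 11.06 ± 0.04 in DMSO (SD, n = 3 each). Dusp6 was also lower in CHIR minus DMSO, without the MEK inhibitor (-0.65 ± 0.06, adjusted p = 5.6e-07), and was 1.07 ± 0.06 in CHIR minus PD03. Socs3, a STAT3 target, differed by 1.64 ± 0.08 in 2iLIF minus 2i (adjusted p = 1.4e-09). Quantile normalization within RMA sets all arrays to nearly the same distribution, so a change in ribosome biogenesis transcripts that kept pace with total RNA would not appear in these values. In RNA of whole cultures, fewer cells of a type and less RNA per cell cannot be told apart.

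Most of the ribosome biogenesis genes were higher in cells kept in CHIR99021 alone than in cells kept in PD0325901 alone. In CHIR minus PD03, 34 of the 40 members were higher and 0 were lower, while 12.6% of all genes tested were higher and 13.2% lower. Because the list was chosen with earlier results of these data known, this contrast is not an independent test of it. Among the 7248 genes whose mean was at or above that of the lowest member, 24.4% were higher. The median difference of the members was 0.20, against -0.014 over all genes, and member differences ran from 0.04 to 0.39. The differences were small: Noc3l, with the widest difference of the 40, stood 1.31-fold higher in CHIR than in PD03. The 6 members that did not pass were Polr1e, Nop58, Nol6, Bysl, Bop1 and Npm1, at 0.04, 0.09, 0.07, 0.10, 0.14 and 0.13. Of the 34 calls, 26 held when each CHIR or PD03 array was left out in turn, and the counts in those refits ran from 27 to 34. The calls lost in at least 1 refit were those of Dkc1, Ebna1bp2, Fbl, Grwd1, Ncl, Polr1b, Rrp12 and Rrp9. Nothing in the labels says that replicates were separate cultures, so the p-values reflect variation among these arrays alone, and that variation may be technical.

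In 36 of the 40 members every CHIR array read above every PD03 array, a pattern that 19.7% of all genes showed. Shares of such patterns, here and below, are over genes of any signal level and were not computed at the members' level. The exceptions were Polr1e, Nol6, Bysl and Npm1. PD03 had the lowest of the 5 group means for 37 members (the others being Nop58, Nol6 and Bysl), compared with 20.1% of all genes. CHIR had the highest mean for 28 members, compared with 14.3% of all genes, and 2iLIF, DMSO and 2i had the highest mean for 5, 5 and 2. CHIR was not tested against 2iLIF. Both held together, CHIR highest and PD03 lowest, for 27 members and for 6.69% of all genes. Taking each member relative to its own mean over the 15 arrays, the median member stood at 0.077, 0.070 and 0.103 in the CHIR arrays and at -0.095, -0.115 and -0.125 in the PD03 arrays. The 2i and 2iLIF arrays lay between 0.0023 and 0.036. The DMSO arrays were at -0.036, -0.00094 and 0.026, and the number of members above their own mean was 7, 20 and 31 in DMSO replicates 1, 2 and 3. The DMSO group was thus the most spread of the 5 for these genes, and its range overlapped with the ranges of 2i and 2iLIF and with neither CHIR nor PD03.

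**Figure D1:**
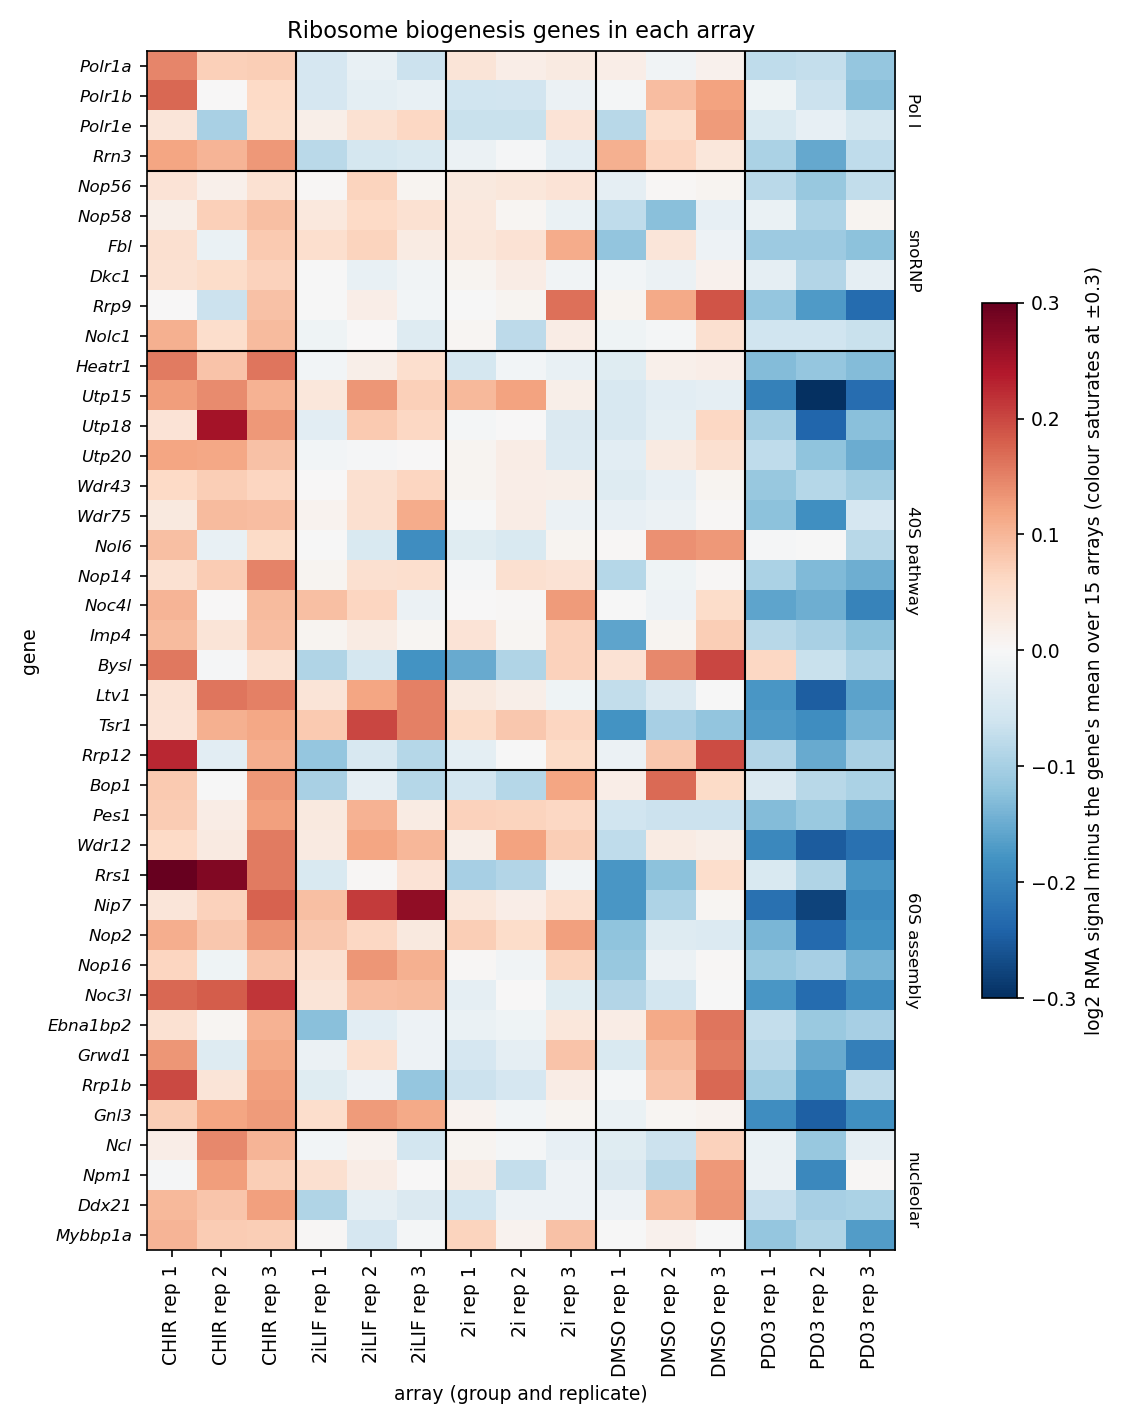
Colour shows the log2 RMA signal of each of the 40 measured genes (rows, grouped by role) in each of the 15 arrays (columns, 3 per group), minus the gene's own mean over all arrays, with red above and blue below that mean. The CHIR columns are mostly red and the PD03 columns almost wholly blue (0 to 2 of 40 genes above their own mean in each PD03 array), while 2iLIF, 2i and DMSO lie between.

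Transcription of the precursor is the step of RNA polymerase I. Rrn3, the initiation factor that brings the polymerase to the ribosomal DNA promoter, read 12.33, 12.32 and 12.35 in CHIR, 12.32, 12.28 and 12.25 in DMSO, 12.12, 12.06 and 12.14 in PD03, 12.20, 12.21 and 12.18 in 2i, and 12.13, 12.16 and 12.17 in 2iLIF. All PD03 arrays lay below all DMSO and all CHIR arrays, and the 2i and 2iLIF arrays lay between PD03 and DMSO or overlapped with PD03. The gene was -0.18 ± 0.03 in PD03 minus DMSO (limma adjusted p = 0.00138) and 0.23 ± 0.03 in CHIR minus PD03 (adjusted p = 1.08e-04). With both inhibitors present it was lower than with CHIR99021 only, at -0.13 ± 0.03 in 2i minus CHIR (adjusted p = 0.018), a call lost without 2i replicate 1 or 3 or CHIR replicate 3. Polr1a, the largest catalytic subunit of the polymerase, read 11.50, 11.43 and 11.43 in CHIR, 11.28, 11.28 and 11.24 in PD03, and 11.40, 11.38 and 11.38 in 2i. CHIR and 2i arrays stood above the PD03 arrays, and the gene passed in CHIR minus PD03 (0.19 ± 0.03) and in 2i minus PD03 (0.12 ± 0.03), the latter lost without 2i replicate 1 or PD03 replicate 3. Polr1b, the second-largest subunit, passed in CHIR minus PD03 alone (0.15 ± 0.05), and that call was lost without CHIR replicate 1 or 3 or PD03 replicate 2 or 3. Polr1e, a smaller subunit, passed in none of the 9 comparisons, and its differences lay between -0.07 and 0.07.

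The small nucleolar RNPs carry the enzymes that modify the precursor. Rrp9, a protein specific to the U3 particle that starts small subunit processing, read 10.38, 10.32 and 10.47 in CHIR, 10.39, 10.50 and 10.57 in DMSO, 10.27, 10.21 and 10.15 in PD03, 10.38, 10.39 and 10.55 in 2i, and 10.38, 10.40 and 10.37 in 2iLIF. The PD03 arrays were lower than the other 12 arrays. Rrp9 had the largest decrease of the members in PD03 minus DMSO, -0.28 ± 0.06 (adjusted p = 0.00228, 1.21-fold lower), and stood 0.23 ± 0.06 higher in 2i than in PD03 (adjusted p = 0.00792). CHIR arrays did not stand above DMSO arrays for this gene (-0.10 ± 0.06, adjusted p = 0.285). Its CHIR minus PD03 difference was 0.18 ± 0.06, a call lost without CHIR replicate 1 or 3 or PD03 replicate 2 or 3.

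Of the proteins of the box C/D particles, which guide 2′-O-methylation, Fbl, the methyltransferase itself, read 11.49, 11.42 and 11.52 in CHIR, 11.32, 11.48 and 11.43 in DMSO, 11.33, 11.33 and 11.32 in PD03, and 11.48, 11.49 and 11.55 in 2i. The PD03 arrays lay below all 2i and all CHIR arrays, while the DMSO arrays overlapped with each of the other groups. Fbl was 0.18 ± 0.04 in 2i minus PD03 (adjusted p = 0.0068) and 0.15 ± 0.04 in CHIR minus PD03, the latter lost without CHIR replicate 3. A second probe set of Fbl, not used in the fit, differed by 0.0991 in CHIR minus PD03. The annotation does not say which gene copy each set reads, so the level of Fbl is uncertain. Nop56 and Nop58 form the core of the same particles. Nop56 passed in CHIR minus PD03 (0.12 ± 0.03) and 2i minus PD03 (0.12 ± 0.03). Nop58 read 11.27, 11.32 and 11.34 in CHIR, 11.17, 11.13 and 11.23 in DMSO, 11.23, 11.16 and 11.26 in PD03, and 11.28, 11.31 and 11.30 in 2iLIF, with CHIR and 2iLIF arrays above the DMSO arrays and PD03 overlapping with DMSO. It passed in CHIR minus DMSO (0.14 ± 0.04, adjusted p = 0.0184) and 2iLIF minus DMSO (0.12 ± 0.04, adjusted p = 0.0196). Whether the 2 genes respond differently was not tested, and both Nop58 calls were lost without single arrays (CHIR replicate 2 or 3 or DMSO replicate 2 for the first, 2iLIF replicate 2 or DMSO replicate 2 for the second). Dkc1, the pseudouridine synthase of the box H/ACA particles, and Nolc1, a chaperone of both kinds of particle, passed in CHIR minus PD03 alone, at 0.10 ± 0.03 and 0.15 ± 0.04. The Dkc1 call was lost without CHIR replicate 2 or 3 or PD03 replicate 2.

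Small subunit factors made up 14 of the measured members, and 12 of them were higher in CHIR than in PD03 (median 0.22). Utp15, a component of the processome that binds the nascent precursor, read 10.54, 10.55 and 10.52 in CHIR, 10.36, 10.38 and 10.39 in DMSO, 10.21, 10.10 and 10.18 in PD03, 10.51, 10.53 and 10.43 in 2i, and 10.44, 10.54 and 10.48 in 2iLIF. PD03 arrays were lowest and DMSO arrays next, and every 2i, 2iLIF and CHIR array was higher than these. Utp15 was 0.37 ± 0.04 in CHIR minus PD03 (adjusted p = 4.04e-06), -0.21 ± 0.04 in PD03 minus DMSO (adjusted p = 0.0013) and 0.16 ± 0.04 in CHIR minus DMSO (adjusted p = 0.00869). In the presence of PD0325901 the rise with CHIR99021 was 0.32 ± 0.04 (2i minus PD03, adjusted p = 2.52e-05, 1.25-fold), the largest of the members in that comparison. Heatr1, another early processome protein, read 11.47, 11.40 and 11.48 in CHIR, 11.28, 11.33 and 11.34 in DMSO, 11.19, 11.20 and 11.19 in PD03, and 11.26, 11.31 and 11.30 in 2i. CHIR arrays stood above and PD03 arrays below all others of these groups. The differences of Heatr1 were 0.13 ± 0.03 in CHIR minus DMSO, -0.12 ± 0.03 in PD03 minus DMSO and -0.16 ± 0.03 in 2i minus CHIR (adjusted p = 0.00947, 0.018 and 0.00572). The second of these was lost without PD03 replicate 1 or 3 or DMSO replicate 2 or 3.

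Some small subunit members act late in maturation. Tsr1, a GTPase-like factor of the cytoplasmic small subunit precursor, read 11.10, 11.17 and 11.18 in CHIR, 10.88, 10.96 and 10.95 in DMSO, 10.89, 10.88 and 10.92 in PD03, 11.12, 11.14 and 11.13 in 2i, and 11.14, 11.26 and 11.21 in 2iLIF. The 9 arrays with CHIR99021 all stood above the 6 without it, and DMSO and PD03 overlapped. Tsr1 rose by 0.22 ± 0.04 in CHIR minus DMSO (adjusted p = 6.42e-04), by 0.20 ± 0.04 in 2i minus DMSO (adjusted p = 9.63e-04) and by 0.23 ± 0.04 in 2i minus PD03 (adjusted p = 4.11e-04), and its difference in PD03 minus DMSO was -0.03 ± 0.04 (adjusted p = 0.646). Ltv1, a factor of small subunit assembly and export, read 10.68, 10.80 and 10.79 in CHIR, 10.57, 10.60 and 10.64 in DMSO, 10.47, 10.39 and 10.48 in PD03, and 10.68, 10.76 and 10.79 in 2iLIF. PD03 arrays were the lowest, followed by DMSO, and the CHIR and 2iLIF arrays were higher than both. It passed in CHIR minus PD03 at 0.31 ± 0.04 (adjusted p = 4.59e-05), and in CHIR minus DMSO (0.16 ± 0.04) and PD03 minus DMSO (-0.16 ± 0.04) with calls that depended on single arrays. Bysl, an early-binding factor that stays with the precursor until the cytoplasm, read 9.72, 9.56 and 9.60 in CHIR, 9.60, 9.70 and 9.76 in DMSO, 9.62, 9.49 and 9.47 in PD03, 9.41, 9.47 and 9.63 in 2i, and 9.47, 9.51 and 9.38 in 2iLIF. Every 2iLIF array was below every DMSO and CHIR array, and the other groups overlapped. Bysl was lower in 2iLIF minus DMSO (-0.24 ± 0.06, adjusted p = 0.00819) and in 2i minus DMSO (-0.19 ± 0.06, adjusted p = 0.0426), and the second call was lost without 2i replicate 1 or 2 or DMSO replicate 2 or 3.

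Rrp12, an export factor of the ribosomal precursors, read 9.43, 9.18 and 9.32 in CHIR, 9.19, 9.29 and 9.40 in DMSO, 9.12, 9.06 and 9.11 in PD03, and 9.09, 9.16 and 9.12 in 2iLIF. PD03 arrays lay below all DMSO arrays, and CHIR replicate 2 read below DMSO replicate 1. The gene was -0.20 ± 0.06 in PD03 minus DMSO (adjusted p = 0.0328) and -0.17 ± 0.06 in 2iLIF minus DMSO (adjusted p = 0.0391), both lost on leaving out any of 5 arrays. Nol6, a processome protein, read 11.15, 11.11 and 10.97 in 2iLIF, and 11.16, 11.29 and 11.29 in DMSO. It passed only in 2iLIF minus DMSO, at -0.17 ± 0.05 (adjusted p = 0.0182), and 2iLIF replicate 3 was the lowest of its 15 arrays. Without that array, or without DMSO replicate 2 or 3, the call was lost. The remaining small subunit members, Utp18, Utp20, Wdr43, Wdr75, Nop14, Noc4l and Imp4, were each higher in CHIR than in PD03, by 0.17 to 0.30. Of these, Noc4l and Utp20 also passed in PD03 minus DMSO. Noc4l arrays there read 10.43, 10.45 and 10.39 in PD03 and 10.59, 10.58 and 10.65 in DMSO (-0.18 ± 0.05, adjusted p = 0.0101).

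Large subunit assembly factors had a median of 0.27 in CHIR minus PD03, with 11 of 12 measured members higher. Noc3l, which acts in early large subunit assembly, read 10.64, 10.65 and 10.68 in CHIR, 10.38, 10.41 and 10.47 in DMSO, 10.29, 10.24 and 10.28 in PD03, 10.44, 10.47 and 10.43 in 2i, and 10.51, 10.56 and 10.56 in 2iLIF. All CHIR arrays were above the other 12 and all PD03 arrays below. The gene was 0.39 ± 0.03 in CHIR minus PD03 (adjusted p = 5.52e-07), 0.24 ± 0.03 in CHIR minus DMSO (adjusted p = 1.22e-04), -0.15 ± 0.03 in PD03 minus DMSO (adjusted p = 0.00626) and -0.21 ± 0.03 in 2i minus CHIR (adjusted p = 8.49e-04). Those 4 calls held in every refit that left out 1 array. Rrs1, which helps bring the 5S RNA and its proteins into the particle, read 8.92, 8.87 and 8.75 in CHIR, 8.42, 8.47 and 8.65 in DMSO, 8.55, 8.50 and 8.42 in PD03, 8.49, 8.51 and 8.58 in 2i, and 8.55, 8.60 and 8.63 in 2iLIF. The CHIR arrays stood above the other 12, which all lay between 8.42 and 8.65. Rrs1 had the largest rise of the members in CHIR minus DMSO, 0.33 ± 0.06 (adjusted p = 6.48e-04, 1.26-fold), and the largest decrease in 2i minus CHIR, -0.32 ± 0.06 (adjusted p = 0.00212). In CHIR minus PD03 it was 0.35 ± 0.06 (adjusted p = 2.72e-04). Its PD03 minus DMSO and 2i minus DMSO differences were -0.02 ± 0.06 and 0.02 ± 0.06 (adjusted p = 0.87 and 0.903).

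Gnl3 (nucleostemin), a nucleolar GTPase abundant in stem cells, read 11.69, 11.73 and 11.74 in CHIR, 11.59, 11.62 and 11.62 in DMSO, 11.42, 11.37 and 11.43 in PD03, 11.62, 11.60 and 11.62 in 2i, and 11.66, 11.74 and 11.73 in 2iLIF. PD03 arrays were lowest, DMSO and 2i arrays overlapped, and CHIR and 2iLIF arrays overlapped above them. It was -0.20 ± 0.03 in PD03 minus DMSO (adjusted p = 4.11e-04), 0.21 ± 0.03 in 2i minus PD03 (adjusted p = 3.55e-04) and 0.31 ± 0.03 in CHIR minus PD03 (adjusted p = 4.52e-06). Its rise in CHIR minus DMSO, 0.11 ± 0.03, was lost on leaving out any of 5 arrays. Nip7, which acts in large subunit RNA processing, read 10.57, 10.60 and 10.71 in CHIR, 10.36, 10.44 and 10.54 in DMSO, 10.31, 10.25 and 10.34 in PD03, 10.56, 10.55 and 10.58 in 2i, and 10.62, 10.74 and 10.80 in 2iLIF. PD03 was lowest without overlap with 2i, CHIR, 2iLIF or DMSO, and DMSO was below 2i. Nip7 rose by 0.18 ± 0.05 in CHIR minus DMSO (adjusted p = 0.0249, lost without CHIR replicate 3 or DMSO replicate 1 or 2), by 0.32 ± 0.05 in CHIR minus PD03 (adjusted p = 2.81e-04), by 0.27 ± 0.05 in 2i minus PD03 (adjusted p = 0.00213) and by 0.28 ± 0.05 in 2iLIF minus DMSO (adjusted p = 6.67e-04). Nop2, a cytosine methyltransferase of the large ribosomal RNA, read 11.50, 11.47 and 11.52 in CHIR, 11.27, 11.35 and 11.35 in DMSO, 11.25, 11.16 and 11.20 in PD03, 11.46, 11.44 and 11.51 in 2i, and 11.47, 11.45 and 11.42 in 2iLIF. The 9 arrays with CHIR99021 were all above the 6 without it. Nop2 passed in CHIR minus DMSO (0.18 ± 0.04), 2i minus DMSO (0.15 ± 0.04) and 2i minus PD03 (0.27 ± 0.04), with adjusted p = 0.00325, 0.00689 and 9.95e-05.

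Bop1, Pes1 and Wdr12 form a complex that is needed to process the large subunit RNA, and the 3 genes differed in their calls. Wdr12 read 10.67, 10.64 and 10.77 in CHIR, 10.53, 10.63 and 10.63 in DMSO, 10.42, 10.36 and 10.39 in PD03, and 10.63, 10.73 and 10.68 in 2i. PD03 arrays stood below the other groups, and the DMSO arrays reached just below the CHIR arrays. Wdr12 was -0.21 ± 0.04 in PD03 minus DMSO (adjusted p = 0.00307), 0.29 ± 0.04 in 2i minus PD03 and 0.30 ± 0.04 in CHIR minus PD03 (adjusted p = 1.91e-04 and 8.91e-05). Its other probe set differed by 0.41 in CHIR minus PD03 and by -0.23 in PD03 minus DMSO. That set, not used in the fit, averaged 9.31 in PD03, against 10.39 for the set used. The annotation does not say which gene copy each set reads, so the level of Wdr12 is uncertain. Pes1 read 11.01, 10.96 and 11.06 in CHIR, 10.88, 10.87 and 10.87 in DMSO, 10.80, 10.82 and 10.79 in PD03, 11.00, 11.00 and 11.00 in 2i, and 10.96, 11.04 and 10.96 in 2iLIF. Here every array with CHIR99021 was above DMSO, and DMSO was above PD03. Pes1 passed in CHIR minus DMSO (0.14 ± 0.04, adjusted p = 0.00988, lost without CHIR replicate 3), 2i minus DMSO (0.13 ± 0.04, adjusted p = 0.0116) and 2i minus PD03 (0.20 ± 0.04, adjusted p = 7.77e-04). Bop1 read 10.59, 10.66 and 10.61 in 2iLIF, and 10.71, 10.86 and 10.75 in DMSO, without overlap. It passed only in 2iLIF minus DMSO, at -0.15 ± 0.05 (adjusted p = 0.0407), and lost that call without 2iLIF replicate 1 or 3 or DMSO replicate 2 or 3. No test of the difference between these 3 genes was made.

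Ebna1bp2 read 10.05, 10.01 and 10.11 in CHIR, 10.03, 10.12 and 10.17 in DMSO, 9.94, 9.90 and 9.91 in PD03, and 9.88, 9.98 and 9.99 in 2iLIF. PD03 and 2iLIF arrays lay below all DMSO arrays. It was -0.19 ± 0.04 in PD03 minus DMSO and -0.16 ± 0.04 in 2iLIF minus DMSO (adjusted p = 0.00472 and 0.00903). Grwd1, a chaperone of a ribosomal protein, read 10.01, 9.84 and 9.99 in CHIR, 9.83, 9.97 and 10.03 in DMSO, and 9.79, 9.72 and 9.67 in PD03. PD03 arrays were below all CHIR and all DMSO arrays, and CHIR and DMSO overlapped. The fall in PD03 minus DMSO was -0.21 ± 0.06 (adjusted p = 0.0188), lost on leaving out any of 4 arrays. Rrp1b read 11.25, 11.09 and 11.18 in CHIR, 11.05, 11.14 and 11.22 in DMSO, and 10.95, 10.88 and 10.97 in PD03, with PD03 below both others. It was -0.20 ± 0.05 in PD03 minus DMSO (adjusted p = 0.0134, lost without PD03 replicate 2 or DMSO replicate 3) and 0.24 ± 0.05 in CHIR minus PD03 (adjusted p = 0.00276). Nop16 read 12.03, 11.95 and 12.04 in CHIR, 11.85, 11.94 and 11.96 in DMSO, 11.85, 11.86 and 11.82 in PD03, and 12.01, 12.09 and 12.07 in 2iLIF. The 2iLIF arrays stood above the DMSO arrays, and DMSO overlapped with CHIR and PD03. Nop16 was 0.14 ± 0.04 in 2iLIF minus DMSO (adjusted p = 0.0156, lost without 2iLIF replicate 2 or DMSO replicate 1) and 0.16 ± 0.04 in CHIR minus PD03 (adjusted p = 0.00834).

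Of the 4 abundant nucleolar proteins 3 were higher in CHIR minus PD03 (median 0.17). Ncl (nucleolin) read 12.51, 12.63 and 12.59 in CHIR, 12.45, 12.42 and 12.56 in DMSO, and 12.47, 12.38 and 12.46 in PD03. CHIR lay above PD03 without overlap, and DMSO overlapped with both. It passed in CHIR minus PD03 alone (0.14 ± 0.04, adjusted p = 0.0263), a call lost without CHIR replicate 2 or 3 or PD03 replicate 2. Npm1 (nucleophosmin) passed in none of the 9 comparisons, and its CHIR minus PD03 difference was 0.13 ± 0.06 (95% interval 0.01 to 0.26). Ddx21, an RNA helicase that acts in ribosomal RNA transcription and processing, read 11.85, 11.84 and 11.88 in CHIR, 11.74, 11.85 and 11.89 in DMSO, 11.69, 11.66 and 11.66 in PD03, 11.70, 11.74 and 11.74 in 2i, and 11.67, 11.73 and 11.71 in 2iLIF. The PD03 arrays were below all DMSO and CHIR arrays, and the 2i and 2iLIF arrays were below all CHIR arrays. Ddx21 was -0.16 ± 0.04 in PD03 minus DMSO (adjusted p = 0.00986, lost without DMSO replicate 3) and 0.19 ± 0.04 in CHIR minus PD03 (adjusted p = 0.00191). Mybbp1a, a nucleolar Myb-binding protein, was 0.18 ± 0.03 in 2i minus PD03 and 0.21 ± 0.03 in CHIR minus PD03 (adjusted p = 0.00137 and 2.68e-04).

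**Figure D2:**
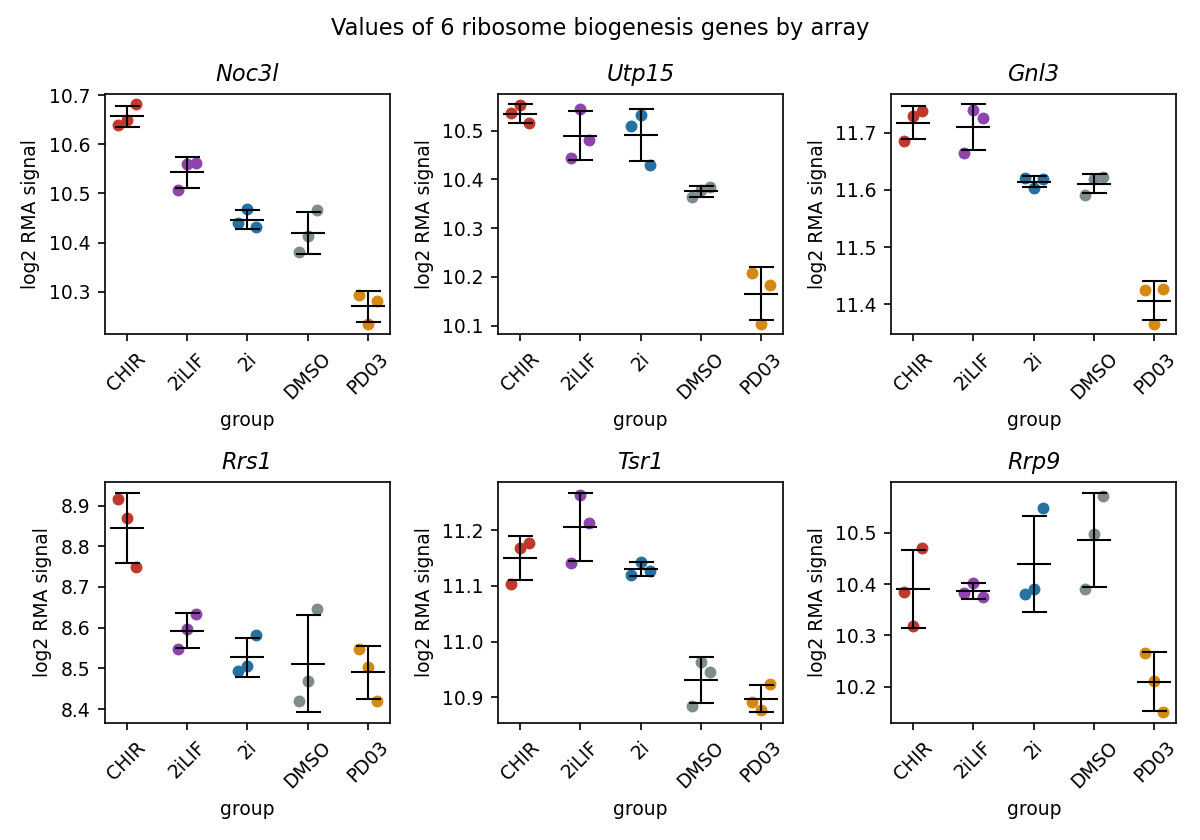
Log2 RMA signal (vertical axis, a separate scale for each gene) of Noc3l, Utp15, Gnl3, Rrs1, Tsr1 and Rrp9 in the 5 groups, with each point an array, the long horizontal line the group mean and the capped bar ± 1 SD (n = 3). PD03 is lowest for Noc3l, Utp15, Gnl3 and Rrp9, only CHIR stands apart for Rrs1, and the 3 groups with CHIR99021 stand above the 2 without it for Tsr1.

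Keeping CHIR99021 alone was compared with withdrawing all factors to ask how GSK3 inhibition bears on these genes. In CHIR minus DMSO 12 of 40 members were higher and 0 lower, against 10% higher and 10.8% lower of all genes, and 19.4% higher of the genes with a mean at or above that of the lowest member. All CHIR arrays stood above all DMSO arrays in 21 members and in 15.6% of all genes. The higher members were Rrs1, Noc3l, Tsr1, Nip7, Nop2, Utp15, Ltv1, Pes1, Nop58, Heatr1, Nop14 and Gnl3. The median over the 40 was 0.085, against -0.0059 over all genes. The count was 6 without CHIR replicate 3, and 6 of the 12 calls (Rrs1, Noc3l, Tsr1, Nop2, Utp15 and Heatr1) held in every refit that left out 1 array. With only the CHIR and DMSO arrays in the fit the count was 5.

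Keeping PD0325901 alone was set against the same DMSO arrays, to ask how MEK inhibition bears on the genes. In PD03 minus DMSO 17 members were lower and 0 higher, against 8.15% lower and 8.67% higher of all genes, and 12.6% lower of the genes with a mean at or above that of the lowest member. The median was -0.13 (0.0045 over all genes), and the one positive difference was that of Nop58, 0.04 ± 0.04, which did not pass. All DMSO arrays stood above all PD03 arrays in 30 members and in 15.8% of all genes. Rrp9, Grwd1, Wdr12, Utp15, Gnl3 and Rrp1b had the largest decreases, from -0.28 to -0.20. The number of lower members was 9 without DMSO replicate 3 and 11 without DMSO replicate 2 or PD03 replicate 2, and 11 with only these 2 groups in the fit. Rrp9, Wdr12, Utp15, Gnl3, Ebna1bp2, Noc4l, Rrn3 and Noc3l kept their calls in every refit without 1 array. The 2 comparisons share the DMSO arrays, whose replicates were spread for these genes, so they are not independent of each other.

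**Figure D3:**
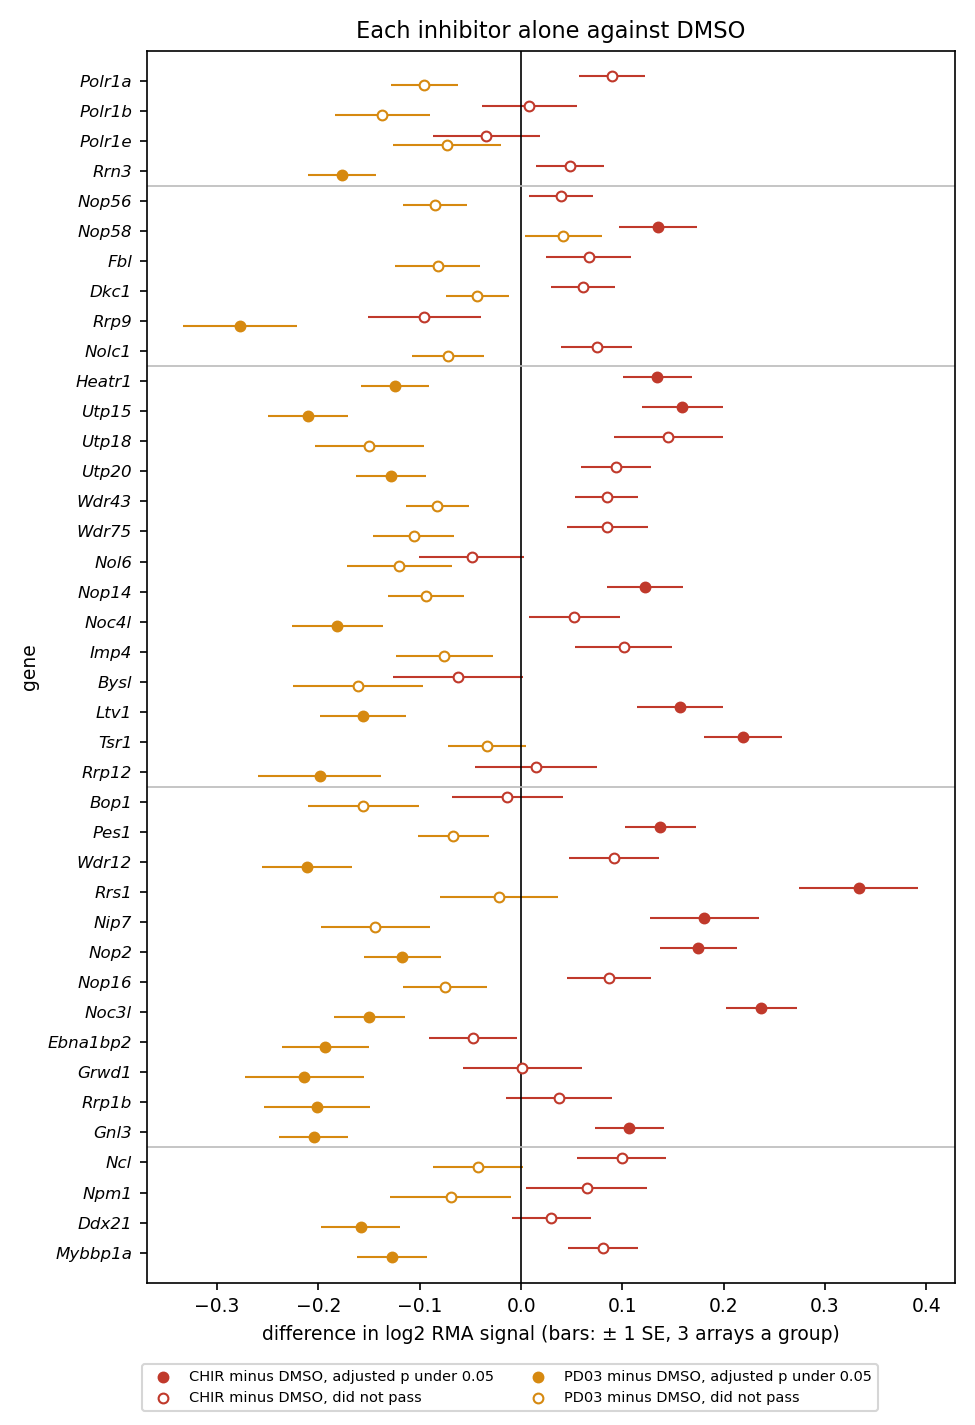
Difference in log2 RMA signal (horizontal axis) of each of the 40 genes in CHIR minus DMSO (red) and PD03 minus DMSO (orange), with bars of ± 1 SE and filled points for adjusted p under 0.05. Filled red points all lie above 0 (12 genes) and filled orange points all lie below 0 (17 genes).

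Each inhibitor was then taken in the presence of the other. Keeping CHIR99021 beside PD0325901 (2i minus PD03) gave 20 members higher and 0 lower, against 10.1% and 9.44% of all genes and 19.2% higher of those at or above the level of the lowest member. The median was 0.12, with Utp15, Wdr12, Nip7, Nop2, Tsr1 and Rrp9 from 0.32 to 0.23. All 2i arrays stood above all PD03 arrays in 30 members and in 19.6% of all genes. Of the 20 calls, 15 held in every refit without 1 array, and the counts ran from 16 to 18. Keeping PD0325901 beside CHIR99021 (2i minus CHIR) gave 5 members lower, Rrs1, Noc3l, Heatr1, Rrn3 and Ddx21, and 0 higher, against 3.76% and 5.70% of all genes, with a median of -0.066. For 2i minus CHIR no share was computed for genes at the members' level. All CHIR arrays stood above all 2i arrays in 17 members and in 10.7% of all genes. Here 3 of the calls (Rrs1, Noc3l and Heatr1) held in every refit without 1 array, and Ddx21 lost its call in all 6. The count was 3 without 2i replicate 1, 2i replicate 3 or CHIR replicate 3.

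Whether the effect of one inhibitor depended on the other was tested by the interaction, (2i minus PD03) minus (CHIR minus DMSO). It passed for 1 member, Rrp9, against 0.933% of genes with a positive and 1.10% with a negative interaction. The interaction of Rrp9 was 0.33 ± 0.08 (limma adjusted p = 0.0472, 95% interval 0.16 to 0.49), made up of 0.23 in 2i minus PD03 and -0.10 in CHIR minus DMSO. That call was lost on leaving out any of 10 of the 12 arrays. The interaction of Rrs1 was -0.30 ± 0.08 (adjusted p = 0.0911), made up of 0.04 and 0.33, and it passed without DMSO replicate 3. Over the 40 members the median interaction was 0.043, 6 members had an unadjusted p under 0.05 in either direction (against 12.3% of all genes), and SEs ran from 0.04 to 0.09. The 95% intervals of all 40 lay between -0.47 and 0.49, which leaves room for interactions as large as most of the differences above.

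With both inhibitors kept and LIF withdrawn, members stood near their DMSO levels. In 2i minus DMSO 4 members were higher (Tsr1, Nop2, Pes1 and Utp15) and 1 lower (Bysl), against 13.6% and 11.9% of all genes, and the median was 0.013. Here too no share was computed for genes at the members' level. Differences ran from -0.19 to 0.20. Utp15 lost its call in 5 of the 6 refits without 1 array, and the lower count was 6 without DMSO replicate 1, 2 without 2i replicate 3 and 0 without any other array of these groups.

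LIF was kept in 2iLIF and withdrawn in 2i. No member passed in 2iLIF minus 2i (0 higher and 0 lower by limma), against 4.56% higher and 7.66% lower of all genes. At an unadjusted p under 0.05 there were 4 higher and 2 lower members of 40, against 8.69% and 13.9% of all genes. Differences ran from -0.09 to 0.15, and the 95% intervals of all 40 lay between -0.22 and 0.27. The highest was Nip7 at 0.15 ± 0.05 (adjusted p = 0.0839). Without 2iLIF replicate 1 the count of higher members was 2.

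Full medium was set against full withdrawal. In 2iLIF minus DMSO 10 members were higher and 7 lower, against 16.7% and 18.0% of all genes, and the median was 0.027. No share was computed here for genes at the members' level. The higher ones were Tsr1, Nip7, Ltv1, Nop16, Noc3l, Nop58, Nop2, Pes1, Utp15 and Gnl3, led by Tsr1 and Nip7 at 0.28 ± 0.04 and 0.28 ± 0.05. Ltv1 and Pes1 were 0.14 ± 0.04 and 0.12 ± 0.04 (adjusted p = 0.0162 and 0.016), the first lost without 2iLIF replicate 2 or 3 or DMSO replicate 1 and the second without 2iLIF replicate 2. The lower ones were Bysl, Nol6, Rrp12, Ebna1bp2, Bop1, Rrn3 and Ddx21, with Rrn3 at -0.13 ± 0.03 (adjusted p = 0.00638). When each array was centred on its median 10 were higher and 1 (Bysl) lower, and with only these 2 groups in the fit the counts were 2 higher and 2 lower. Leaving out 2iLIF replicate 2 gave 4 higher, leaving out DMSO replicate 1 gave 5 higher, and leaving out DMSO replicate 2 or 3 gave 3 lower. The lower count was 4 without 2iLIF replicate 1 or 3.

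A wider list of ribosome biogenesis factors outside the 42 was read in the same way, with 126 of its 128 genes measured. It too was chosen with earlier results of these data known, so it is not an independent test. In CHIR minus PD03 95 were higher and 1 lower (median 0.18), against 12.6% and 13.2% of all genes. Of genes with a mean at or above that of the lowest member, 24.4% were higher. The largest were Utp14a, a processome protein, at 0.56 ± 0.05, Mphosph10, a partner of the U3 particle, at 0.40 ± 0.06, Ddx10, an RNA helicase, at 0.39 ± 0.04, and Pop1, a protein of RNase P and RNase MRP, at 0.39 ± 0.06. The lower one was the helicase gene Ddx54 (-0.12 ± 0.04). The wider list had 34 genes higher and 2 lower in CHIR minus DMSO, against 10% and 10.8% of all genes. In PD03 minus DMSO, 0 were higher and 34 lower, against 8.67% and 8.15%. In 2i minus PD03, 47 were higher and 0 lower, against 10.1% and 9.44%. In 2i minus CHIR, 0 were higher and 10 lower, against 5.70% and 3.76%. Of genes at or above the level of the lowest member, 19.4% were higher in CHIR minus DMSO. In PD03 minus DMSO 12.6% of them were lower, and in 2i minus PD03 19.2% were higher. No share was computed at the wider list's own level. In PD03 minus DMSO the lowest was Naf1, an assembly factor of the box H/ACA particles, at -0.42 ± 0.05, followed by Mrto4 at -0.31 ± 0.07. In 2iLIF minus 2i 1 was higher (Ngdn, 0.24 ± 0.06) and 3 were lower, against 4.56% and 7.66% of all genes. Of the 126 genes only Polr1c, a subunit shared by RNA polymerases I and III, passed for the interaction, at 0.26 ± 0.06 (limma adjusted p = 0.0339). Over all genes 0.933% passed with a positive and 1.10% with a negative interaction.

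Among the genes of the cytosolic ribosomal proteins themselves, few were called in the comparisons of single inhibitors. Of the 54 measured among 77 listed, 4 were higher in CHIR minus PD03 and 0 lower (median 0.037), 0 passed in CHIR minus DMSO (7 at an unadjusted p under 0.05, against 30.7% of all genes), and 1, Rpl12, was lower in PD03 minus DMSO. In 2iLIF minus DMSO 15 were higher and 0 lower, against 16.7% and 18.0% of all genes. Rpl30 was the largest in CHIR minus PD03, at 0.29 ± 0.06. Many ribosomal protein genes have near-identical processed copies, so their probe sets are uncertain. Many of them also averaged above Nop56, the member with the highest mean (12.52). Rpl9 averaged 13.60, near the highest value on the arrays, 13.99. Whether so high a signal narrows their differences was not tested. Of 74 mitochondrial ribosomal protein genes 36 were higher and 1, Mrps24, lower in CHIR minus PD03 (median 0.13), against 12.6% and 13.2% of all genes. In PD03 minus DMSO 16 were lower and 0 higher, against 8.15% and 8.67% of all genes. The difference between these lists was not tested.

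**Figure D4:**
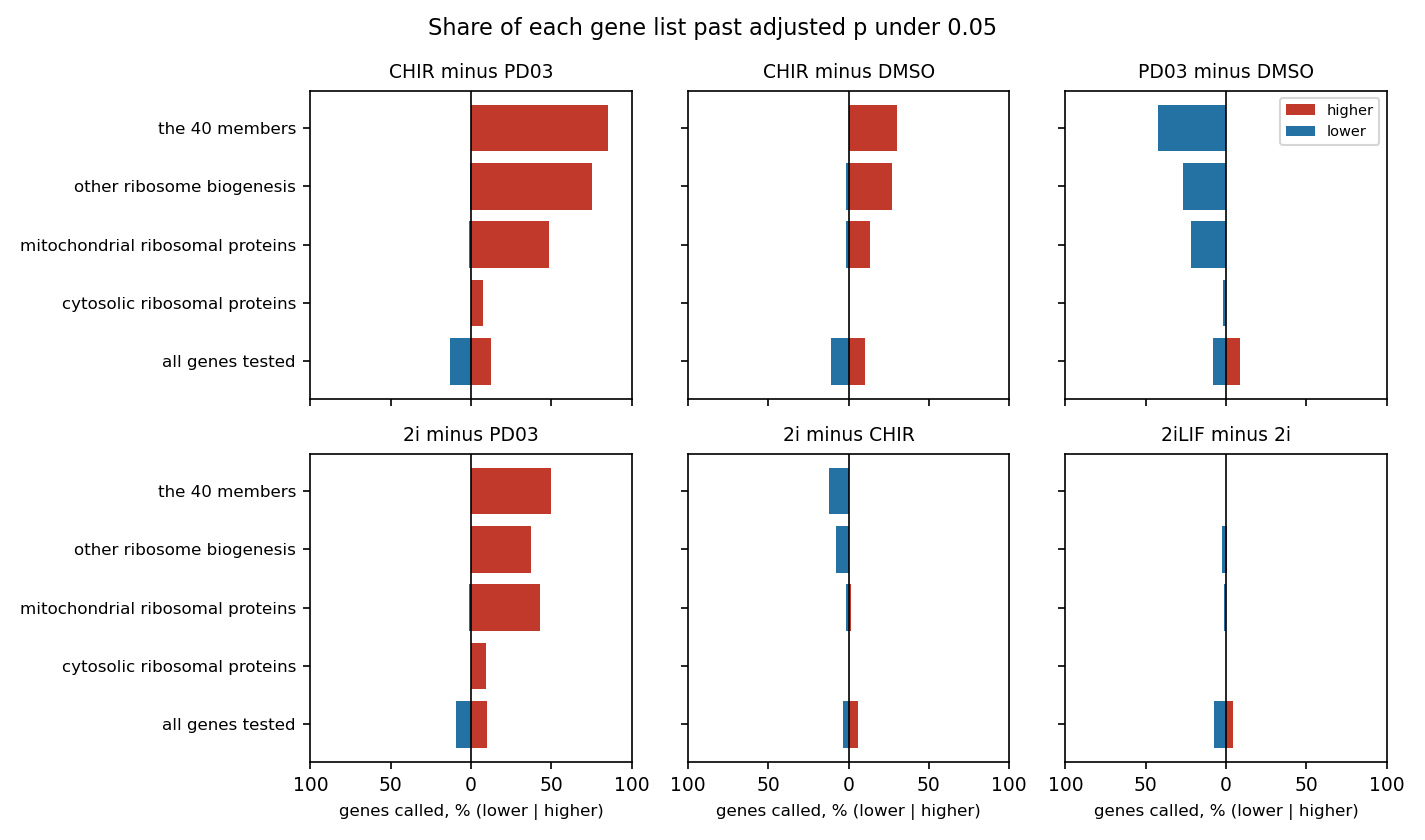
Percent of genes past adjusted p under 0.05 (horizontal axis, higher to the right in red and lower to the left in blue) in 5 sets of genes for 6 comparisons. In CHIR minus PD03 the bar of the 40 members reaches 85% and that of the other ribosome biogenesis genes 75.4%. Cytosolic ribosomal proteins are at 7.41% and all genes, of any signal level, at 12.6%. Of genes with a mean at or above that of the lowest member, which are not plotted, 24.4% were higher.

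Genes of the Myc network were read beside the members. Myc itself was at 9.78 ± 0.26 in DMSO, 9.37 ± 0.23 in CHIR, 8.96 ± 0.03 in 2iLIF, 8.78 ± 0.11 in PD03 and 8.71 ± 0.21 in 2i (SD, n = 3), with 0.59 ± 0.13 in CHIR minus PD03 (adjusted p = 0.00247) but -0.41 ± 0.13 in CHIR minus DMSO (adjusted p = 0.0319). Mycn was lower in CHIR than in PD03 (-0.47 ± 0.06) and lower in CHIR than in DMSO (-0.43 ± 0.06). Mycl was at -0.05 ± 0.07 and their partner Max at 0.01 ± 0.04 in CHIR minus PD03, where neither passed. Of the rest of the 11 network genes read, Mxd4, Mxd3, Mxd1, Mnt and Mga were lower there. Their differences were -0.30 ± 0.05, -0.27 ± 0.05, -0.25 ± 0.05, -0.20 ± 0.05 and -0.15 ± 0.03. Mxi1 and Mlx did not pass. In CHIR minus PD03, where 12.6% of all genes were higher and 13.2% lower, 3 of 21 genes of S and M phase were higher and 6 lower (median -0.052). Ccne2, a cyclin of S phase entry, was at 0.33 ± 0.07 and Cdc20, a mitotic activator of the anaphase-promoting complex, at -0.16 ± 0.05. Of 10 p53 targets 0 were higher and 4 lower in the same comparison, led by the antiproliferative gene Btg2 at -0.73 ± 0.05. Markers of other cell types in CHIR minus PD03 were 0 higher and 0 lower of 8 for fibroblasts, 0 and 1 of 7 for primitive endoderm, and 0 and 1 of 5 measured for neural progenitors. The neural list averaged 6.79 to 6.91 in CHIR arrays and 7.14 to 7.16 in PD03 arrays, and its lower gene was Pax6 (-1.15 ± 0.05). The part of Myc, of the cell cycle or of other cell types in the member differences was not tested.

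The measured members, whether or not they passed a test, were looked up in the RefSeq table of promoter sequences (build GRCm38.p6), whose windows run from 250 bases before to 50 bases after a gene's start. By gene identifier 34 of the 40 members matched, with 37 windows. Fbl, Rrp12, Nol6, Bop1, Rrs1 and Npm1 had no entry. Each window was searched on both strands for CACGTG, the E-box bound by Myc and related factors, for CCGGAAG, a core site of ETS factors, and for TCGCGA, the centre of a palindromic element of housekeeping promoters. None of the 3 motifs contains another. CACGTG was in a window of 11 of the 34 genes (32.4%), against 8.09% of the 27025 genes of the table and 9.52% of the 15562 measured genes with a window. CCGGAAG was in 12 of 34 (35.3%), against 9.93% and 13.6%, and TCGCGA in 4 of 34 (11.8%), against 2.86% and 4.1%. The wider list of ribosome biogenesis genes, with 106 matched, had CACGTG in 17.0%, CCGGAAG in 43.4% and TCGCGA in 4.72%. These are counts of letters in a window, not of bound sites, and they say nothing about a factor.

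By windows, CACGTG was in 29.7% of the 37 member windows and in 7.15% of all 32851. The 11 members with CACGTG had a median CHIR minus PD03 difference of 0.22 and the 23 without it 0.19. Across all measured genes the medians were 0.016 with and -0.015 without the motif. For CCGGAAG the member medians were 0.26 with and 0.19 without it, and 0.035 and -0.019 across all measured genes. Members had higher medians than all measured genes, both with and without either motif. No test was made of these differences or of the part of a motif in them.

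The windows below are those of the 4 members with CACGTG that had the largest CHIR minus PD03 differences, and of Noc3l, which had the largest difference among matched members without it. They are printed to show where the motifs stand, 5′ to 3′ on the gene's strand, with every match to 1 of the 3 motifs in capitals (CTTCCGG is CCGGAAG read on the other strand).
Ltv1, chr10:13193088-13193387 (- strand): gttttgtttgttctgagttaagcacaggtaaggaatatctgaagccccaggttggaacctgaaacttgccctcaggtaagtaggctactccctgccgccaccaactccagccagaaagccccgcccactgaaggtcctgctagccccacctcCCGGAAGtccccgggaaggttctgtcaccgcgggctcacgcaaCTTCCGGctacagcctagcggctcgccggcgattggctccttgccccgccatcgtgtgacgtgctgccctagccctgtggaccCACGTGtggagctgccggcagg
Utp18, chr11:93885717-93886016 (- strand): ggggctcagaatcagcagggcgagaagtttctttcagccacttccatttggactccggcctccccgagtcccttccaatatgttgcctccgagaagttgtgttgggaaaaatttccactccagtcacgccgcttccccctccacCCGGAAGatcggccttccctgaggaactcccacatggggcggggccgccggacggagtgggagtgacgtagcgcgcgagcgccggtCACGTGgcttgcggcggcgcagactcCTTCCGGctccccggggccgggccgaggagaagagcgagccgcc
Nop2, chr6:125131633-125131932 (+ strand): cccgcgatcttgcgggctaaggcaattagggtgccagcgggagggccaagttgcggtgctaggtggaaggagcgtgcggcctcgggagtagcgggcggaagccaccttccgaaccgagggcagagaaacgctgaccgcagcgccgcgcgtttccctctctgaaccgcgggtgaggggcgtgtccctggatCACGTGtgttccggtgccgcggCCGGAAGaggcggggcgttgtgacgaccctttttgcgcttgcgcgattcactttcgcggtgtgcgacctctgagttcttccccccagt
Tsr1, chr11:74897830-74898129 (+ strand): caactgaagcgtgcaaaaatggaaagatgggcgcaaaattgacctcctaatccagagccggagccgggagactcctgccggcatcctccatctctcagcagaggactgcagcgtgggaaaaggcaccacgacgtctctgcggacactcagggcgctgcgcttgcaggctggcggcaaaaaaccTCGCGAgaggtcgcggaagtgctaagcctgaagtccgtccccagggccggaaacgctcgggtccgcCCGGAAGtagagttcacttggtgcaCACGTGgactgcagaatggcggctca
Noc3l, chr19:38819188-38819487 (- strand): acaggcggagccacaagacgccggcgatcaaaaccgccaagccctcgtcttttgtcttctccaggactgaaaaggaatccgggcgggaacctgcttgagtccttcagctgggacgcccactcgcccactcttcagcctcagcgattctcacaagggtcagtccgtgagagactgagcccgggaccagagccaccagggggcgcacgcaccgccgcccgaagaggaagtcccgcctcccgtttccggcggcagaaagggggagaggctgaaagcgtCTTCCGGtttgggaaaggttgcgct
The 4 genes with an E-box also held CCGGAAG, at 2 places each in Ltv1 and Utp18. Counting from the start of the gene, CACGTG began at position 29 in Ltv1, -20 in Utp18, -60 in Nop2 and 25 in Tsr1. Tsr1 held all 3 motifs, with TCGCGA at -67 and CCGGAAG at -1. Noc3l held CTTCCGG at 26 and neither of the others. In CHIR minus PD03 these genes stood at 0.31 ± 0.04 (Ltv1), 0.30 ± 0.05 (Utp18), 0.29 ± 0.04 (Nop2), 0.25 ± 0.04 (Tsr1) and 0.39 ± 0.03 (Noc3l), the values by which they were chosen.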

How the data were processed

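Total RNA of 15 samples was measured on single-colour Affymetrix arrays, 3 in each of 5 groups, per the labels' protocols. The authors deposited log2 values per probe set made with RMA, per the submitters' processing notes; its version and the genome build are not given in the sources used here. Of 34760 probe sets 21640 had exactly 1 gene symbol in the platform annotation given with the table (1321 had several and 11799 none), and symbols were updated through gene identifiers to RefSeq. For 954 genes with more than 1 set, the set with the highest mean was used, which left 19937 genes. No filter on level was applied.

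In R 4.3.3, limma 3.58.1 (lmFit and eBayes with default settings) fitted the 5 group means to the 15 arrays together, with 10 residual and 5.09 prior degrees of freedom, and 9 comparisons were drawn from it. All p-values are two-sided. The median SE of a difference was 0.0509, and 3 arrays a group limit this precision. The procedure was tested on simulated data. The members and gene lists were chosen with earlier results of these data known. Members given in full were, per comparison, up to 6 higher and 6 lower past the threshold. Up to 4 each way were named from the wider list and 2 from others. Myc, Mycn, Mycl, Max, Axin2, Dusp6, Socs3 and Pou5f1 were named whatever their result. In CHIR minus PD03 the other Myc network genes were named too. Alternatives were another probe set summary, a filter at a mean of 6, median centring, a trended robust variance, a fit to the compared groups alone, a minimum difference of 0.2, a replicate block, and leaving out each array.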

Additional observations from a re-analysis of the deposited data

Results flagged for a closer look

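The effect of CHIR99021 with and without PD0325901 differed by the interaction term for Rrp9 at 0.33 and, in the wider list of ribosome biogenesis genes, for Polr1c at 0.26. For Polr1c the arrays read 11.67, 11.55 and 11.71 in CHIR, 11.62, 11.58 and 11.69 in DMSO, 11.46, 11.49 and 11.44 in PD03, and 11.72, 11.76 and 11.74 in 2i, with 0.28 ± 0.04 in 2i minus PD03 and 0.01 ± 0.04 in CHIR minus DMSO (limma). For Rrp9 the interaction was lost on leaving out any of 10 of the 12 arrays, with a replicate block, with array medians centred and with the 12 arrays alone in the fit. These alternatives were read for the members only, so the Polr1c call was not checked in this way.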

How the results depend on the processing

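No member difference that passed reversed its direction under any of these alternatives. The share of all genes that passed was counted in the main fit only. Member counts under the alternatives therefore cannot be set against a general loss or gain of calls. With only the compared groups in the fit, the counts of members that passed were 5 higher in CHIR minus DMSO (12 as reported), 11 lower in PD03 minus DMSO (17), 3 lower in 2i minus CHIR (5), 2 higher and 2 lower in 2iLIF minus DMSO (10 and 7), 0 lower in 2i minus DMSO (1) and 0 with an interaction (1). A minimum log2 difference of 0.2 left 3 higher in CHIR minus DMSO, 6 lower in PD03 minus DMSO, 2 lower in 2i minus CHIR, 9 higher in 2i minus PD03 (20), 20 higher in CHIR minus PD03 (34), 2 higher and 1 lower in 2iLIF minus DMSO, and 0 either way in 2i minus DMSO (4 and 1). With a trended and robust variance 4 were lower in 2i minus DMSO, 9 lower in 2i minus CHIR and 2 higher in 2iLIF minus 2i (0). With array medians centred 1 was lower in 2iLIF minus DMSO, 0 lower in 2i minus DMSO and 0 had an interaction. Averaging probe sets and filtering at a mean of 6 kept each of these counts within 1.5 times. The labels do not say whether replicate numbers pair the arrays. The 30 same-numbered pairs across groups had correlations of deviations from -0.364 to 0.341 (median -0.014), with 10 over 0.1. The 60 pairs with different numbers ran from -0.432 to 0.443 (median 0.042). Deviations from means of only 3 arrays cannot settle whether the arrays were paired. A fit with the replicate number as a block gave 0 lower in 2i minus DMSO, 1 higher in 2iLIF minus 2i, 0 interactions, and 12, 17 and 34 in CHIR minus DMSO, PD03 minus DMSO and CHIR minus PD03. Leaving out each array in turn gave 6 to 14 higher in CHIR minus DMSO, 9 to 21 lower in PD03 minus DMSO, 3 to 4 higher and 0 to 6 lower in 2i minus DMSO, 3 to 5 lower in 2i minus CHIR, 0 to 2 higher in 2iLIF minus 2i, 4 to 9 higher and 3 to 9 lower in 2iLIF minus DMSO, and 0 to 1 interactions in either direction. The cause of these shifts was not tested. With SEs near 0.05, differences under about 0.1 could seldom pass.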
